A study of Mus musculus with 3 samples.

Results

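The 10 hepatic nuclear receptor genes Rora, Nr5a2, Esrra, Hnf4a, Rxra, Nr1h3, Nr1h4, Ppara, Nr1i2 and Nr1i3 were examined in a map of RNA crosslinked to the splicing regulator RBFOX2 in primary mouse hepatocytes. Their clusters, which are short stretches where crosslinked cDNAs pile up, were those on the strand of the gene with their midpoint inside its GENCODE M21 span on GRCm38. This gave 160 of 87021 clusters (0.184%) and 3375 of 2850863 cDNA counts (0.118%), and 9 of the 10 genes held at least 1 cluster. Among all protein-coding genes, 41.7% held one (9191 of 22028).

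The map came from eiCLIP, an individual-nucleotide crosslinking and immunoprecipitation protocol, and the question was where RBFOX2 contacts the transcripts of liver cells. All 3 libraries belong to 1 group: hepatocytes of C57BL6/J mice, immunoprecipitated with an antibody to RBFOX2 (RBM9, Bethyl Laboratories). The labels give 3 livers and 3 pellets for each sample, whereas the methods of the study describe independent hepatocyte cultures that each came from a pair of mice. For the study as a whole the methods name male mice unless stated otherwise and an age of 8 weeks when diets were assigned; they give no age or diet for the mice behind these cultures. No knockout, treated or input library was analysed here. The authors pooled the libraries before they called clusters, so every value below is 1 pooled value with no replicate check, and intervals (exact Poisson for counts, Wilson for shares, both 95%) cover counting error only. A cDNA count rises with the amount of a transcript as well as with RBFOX2 contact, and these cannot be told apart.

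Nuclear receptors are transcription factors whose ligand-binding domain senses lipids, bile acids, oxysterols or drugs, and in the liver they set the expression of genes for lipid, glucose, bile acid and xenobiotic metabolism. Some act alone or as homodimers (RORα, LRH-1, ERRα, HNF4α), while LXRα, FXR, PPARα, PXR and CAR pair with RXRα. Several are made from more than 1 promoter or with alternative exons. RBFOX proteins bind the RNA element GCAUG, often as UGCAUG; near an alternative exon they are known to shift its inclusion according to the side on which they bind, and in 3′ UTRs they are known to affect mRNA level.

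Over the whole list the median cDNA count per cluster was 17, the lowest 10 and the highest 186971, and the median width was 18 nt. A protein-coding gene with a cluster had a median of 3 clusters and 63 counts, and its median span was 32.7 kb, against 10.2 kb for genes without one. Hepatocyte markers held clusters in 9 of 10 genes, led by Alb with 8110 counts, while Kupffer cell, endothelial and stellate cell markers held them in 2 of 8 genes each and cholangiocyte markers in 0 of 8. The highest of those non-hepatocyte sums was 150 counts, in Reln. Beside these lists, 41.7% of all protein-coding genes held a cluster.

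The receptor genes differed widely in how many clusters they held. Rora carried 85 clusters and 1975 counts (interval 1889 to 2064), which was 53.1% of the clusters and 58.5% of the counts of all 10 genes. Nr1h4 had 18 clusters and 415 counts (376 to 457), Rxra 18 and 300 (267 to 336), Hnf4a 16 and 237 (208 to 269), and Nr1i2 10 and 204 (177 to 234). Nr5a2 followed with 6 clusters and 154 counts (131 to 180). In this order each interval overlaps that of its neighbour from Rxra down to Nr5a2, while Rora and Nr1h4 stand clear of the rest. Nr1h3 with 3 clusters and 38 counts (26.9 to 52.2), Ppara with 3 and 34 (23.5 to 47.5) and Esrra with 1 and 18 (10.7 to 28.4) lay close together at the low end, and Nr1i3 held 0. The median count of their clusters, 17, was that of the whole list, and 11 of 160 (6.88%) reached the 39 counts that mark the top 10%, against 10.2% of all clusters. Of these 11, 8 were in Rora.

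**Figure D1:**
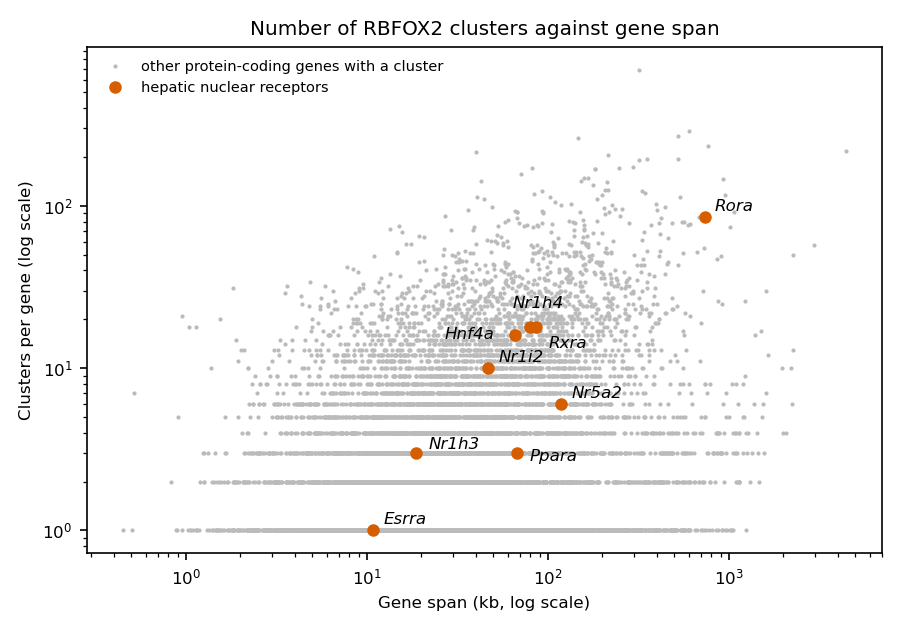
Clusters per gene (log axis) against gene span in kb (log axis) for protein-coding genes with a cluster, 1 point per gene, with the 9 receptor genes that held a cluster in orange. Rora, the longest of them at 734 kb, stands at 85 clusters, and Nr5a2 at 118 kb lies below the shorter Nr1h4, Rxra, Hnf4a and Nr1i2.

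Per length the order changed. Clusters per 10 kb of gene were 2.42 in Hnf4a, 2.27 in Nr1h4, 2.15 in Nr1i2 and 2.08 in Rxra, above the median of 1.22 over protein-coding genes with a cluster, and 1.6 in Nr1h3. Rora came to 1.16 per 10 kb and Esrra to 0.923, both below that median, and Nr5a2 and Ppara were lowest at 0.509 and 0.442. By number of clusters Rora ranked 62 of 9191 genes, while per 10 kb it exceeded 48.4% of them.

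By annotation class, 119 of the 160 clusters (74.4%, 67.1 to 80.5) were intronic, against 68.1% of all clusters in genes. A further 32 (20%, 14.5 to 26.9) lay in 3′ UTRs, against 13.3% of all, and 28 of these were in Rora. Coding sequence held 6 clusters (3.75%, 1.73 to 7.94), below the 14.1% of all clusters, and 5′ UTRs held 3 (1.88%). Without Rora, 64 of 75 clusters (85.3%, 75.6 to 91.6) were intronic and 4 (5.33%, 2.09 to 12.9) lay in 3′ UTRs. A 3′ UTR cluster was present in 3 of the 10 genes, Rora, Hnf4a and Rxra, and in 16.1% of all protein-coding genes.

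**Figure D2:**
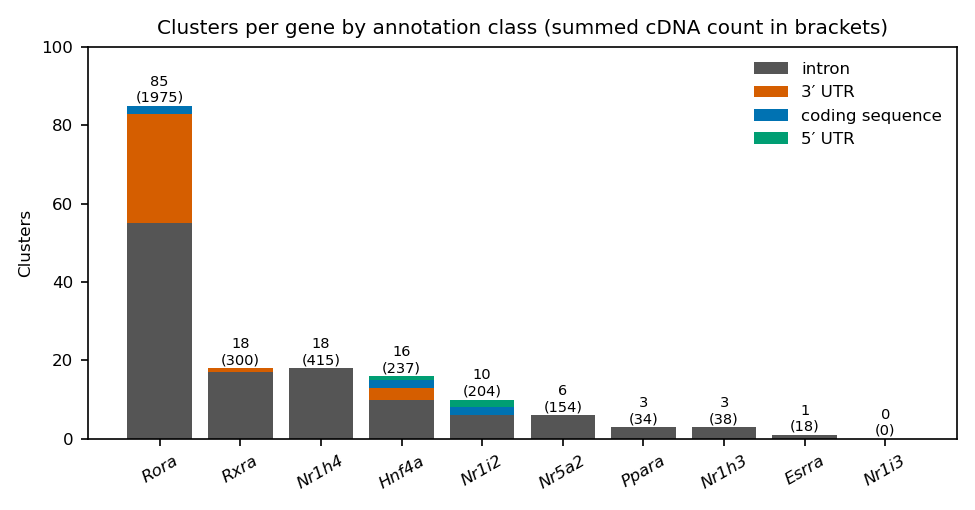
Number of clusters per receptor gene (y axis), stacked by annotation class, with the summed cDNA count in brackets above each bar. Introns hold the most clusters in each of the 9 genes with any, and Rora alone shows a large 3′ UTR part (28 of 85 clusters).

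Rora encodes RORα, a monomeric receptor that activates circadian and lipid genes (ENSMUSG00000032238.17, chromosome 9, 68653786 to 69388246, plus strand). Its clusters were concentrated in the last part of the gene. Only 2 clusters, of 12 and 10 counts, lay in the 636 kb (86.6% of the span) before the first base of Rora-202, the principal transcript with the internal start at 69289682, and 83 lay from there on. That is 0.0315 clusters per 10 kb before this start, against 6.77 per 10 kb inside the Rora-202 span, where 61 clusters fell. Fewer clusters per 10 kb before the start of the reference transcript than inside it was the common case, seen in 413 of 558 genes (74.0%) with at least 10 kb before that start, and pooled over those genes the densities were 0.274 and 0.702 per 10 kb. The reference-transcript split was chosen after the positions had been seen.

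Inside Rora-202 the first intron was the main site. It spans 58.1 kb and held 46 of the 55 intronic clusters and 871 counts, or 7.92 clusters per 10 kb. Intron 2 held 4 clusters, and introns 3, 4 and 9 held 1 each. The intronic counts ranged from 10 to 53 with a median of 17, and the highest was the cluster at 69290771 to 69290806. Most of these clusters were far from exons: 35 lay beyond 5 kb and 5 of 55 within 500 nt. Those 5 lay 89 nt after exon 1 (19 counts), 225 nt after exon 2 (11), 238 nt after exon 9 (13), 210 nt before exon 3 (22) and 83 nt before exon 4 (17). In coding sequence Rora had 2 clusters, of 19 counts in exon 5 (69371207 to 69371256) and of 10 counts in exon 7 (69374089 to 69374104).

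The 3′ UTR of Rora, 1.26% of the gene span, took 47.7% of its counts. Of that span, 86.6% lay before Rora-202 and held only 2 clusters, of 22 counts in all. The 9285 nt of the UTR held 28 clusters and 942 counts, with a median of 24.5 counts per cluster against 17 in the introns. Rora ranked 19 among the 3548 genes with a 3′ UTR cluster by number of clusters there and 52 by count. Of the 3524 such genes with an annotated stop codon, 99.4% had fewer clusters, but 98.8% also had a shorter UTR, and per length the difference was smaller: 3.02 clusters per kb in Rora, above 85% of these genes, whose median was 0.975. Among the 86 genes with at least 8 kb of 3′ UTR, a length chosen after the values were seen, the median was 3 clusters and 3 genes, Rora among them, had 28 or more.

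The highest cluster of any receptor gene lay here, with 170 counts at 69379731 to 69379788, which is 770 to 827 nt after the stop codon. It ended 21 nt before the annotated end of Rora-202, whose 3′ UTR is 848 nt long. The next were 95 counts at 69380332 to 69380385, 62 counts at 69379956 to 69379960, and 44 counts in a cluster across the stop codon itself (69378938 to 69379028). Before the shorter annotated end lay 6 clusters with 264 counts, and beyond it, in sequence that belongs only to the longer annotated UTR, 22 clusters with 678 counts. The first 2000 nt held 13 clusters and 57.6% of the UTR count, and the rest was spread to within 201 nt of the far end.

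The 9285 nt contained GCATG, the DNA letters of the RBFOX element, 10 times on the transcribed strand, 6 of them as TGCATG. Of these, 5 lay within 50 nt of a cluster and 0 inside one, and each of the 5 lay on the 5′ side of its nearest cluster. They are shown because they include the elements nearest to the clusters of 170 and 62 counts; each line is 30 nt of the GRCm38 plus strand, read from GENCODE M21 transcript sequence, and the capitals mark the element.
Rora 3′ UTR nt 583 (chr9:69379532-69379561): cagggtaaatggGCATGaagactatatata
Rora 3′ UTR nt 752 (chr9:69379701-69379730): tgtcgccgtgtcGCATGtacaccagaaaca
Rora 3′ UTR nt 989 (chr9:69379938-69379967): atactttgttttGCATGcaattgagaatgg
Rora 3′ UTR nt 5893 (chr9:69384842-69384871): gcgcacatctatGCATGcttgtatgtgatc
Rora 3′ UTR nt 8418 (chr9:69387367-69387396): cttaactgtctaGCATGaagagagattgga
The element at nt 752 lay 14 nt before the cluster of 170 counts, and that at nt 989 lay 2 nt before the cluster of 62. Those at nt 583, 5893 and 8418 preceded clusters of 10, 31 and 20 counts by 17, 21 and 15 nt.

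Not every strong Rora cluster had the element beside it. The cluster of 95 counts had none within 50 nt, and the centre of that cluster is given for comparison, with no capitals.
Rora 3′ UTR cluster of 95 counts (chr9:69380344-69380373): gttctgtgtatggggtagatggtggatgaa
In all, 7 of the 28 windows of cluster plus 50 nt on each side (25%, 12.7 to 43.4) held GCATG, sharing 5 elements, against 13.2% of all windows of those lengths in the same UTR. Counts of the 7 ranged from 10 to 170 with a median of 20, and those of the other 21 from 10 to 95 with a median of 26, so the ranges overlapped. Sequence was at hand for 33 receptor cluster windows, and the 7 in Rora (21.2%, 10.7 to 37.8) were the only ones with GCATG; the 5 windows in other genes had none. The share over all clusters with sequence was 20.2%, and over those in 3′ UTRs 21.7%. The reverse complement CATGC, which overlaps GCATG wherever the letters GCATGC occur, was present in 9 of the 33 windows (27.3%), so GCATG was not the more frequent of these 5-letter words in the receptor windows.

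**Figure D3:**
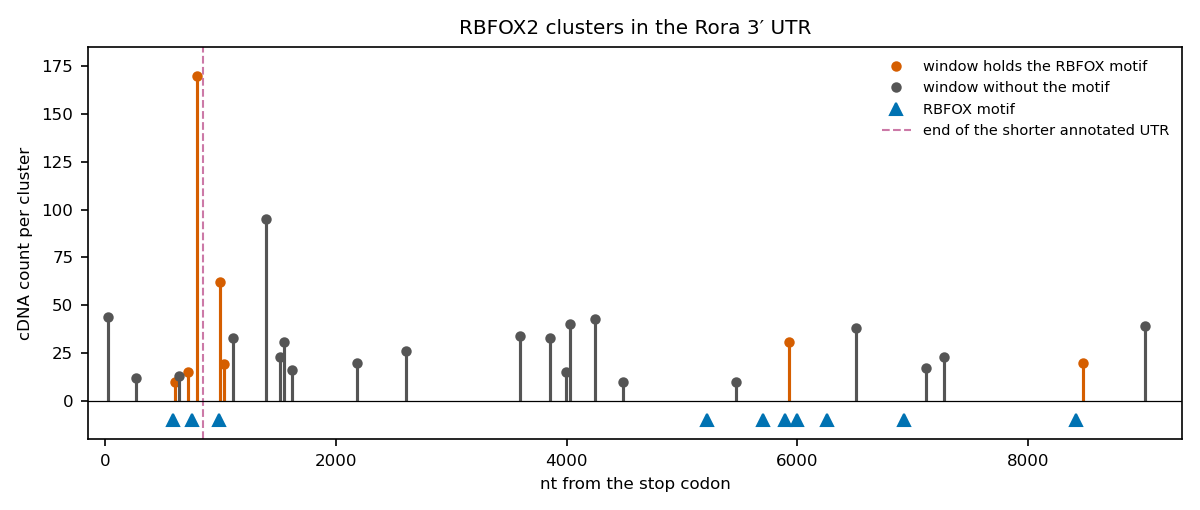
The 28 clusters of the Rora 3′ UTR by distance from the stop codon in nt (x axis) and cDNA count (y axis), in orange where the window of 50 nt on each side holds the RBFOX element, with the 10 elements as triangles and the end of the shorter annotated UTR as a dashed line. The highest point, 170 counts, stands just before the dashed line, and 7 of the 28 clusters are orange.

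Nr5a2, which encodes LRH-1, a monomeric receptor that activates bile acid synthesis genes (ENSMUSG00000026398.14, chromosome 1, 136842571 to 136960448, minus strand), had 6 clusters, all intronic and none within 500 nt of an exon. A single cluster at 136867614 to 136867616, only 3 nt wide and in intron 7, carried 82 counts (65.2 to 102), which was 53.2% of the gene's total and more than 97.3% of all clusters. The other 5 totalled 72 counts, with 19 as the next highest, and 4 of them lay in intron 5. Without that 3 nt cluster Nr5a2 would fall from 154 counts to those 72. Esrra, which encodes ERRα, a regulator of mitochondrial genes (ENSMUSG00000024955.14, chromosome 19, 6910977 to 6921813, minus strand), had 1 cluster of 18 counts at 6914667 to 6914674 in intron 2 of its reference transcript, 375 nt upstream of the nearest annotated exon, a longer form of exon 3 in a non-coding transcript.

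Hnf4a, the homodimeric receptor that maintains hepatocyte identity (ENSMUSG00000017950.16, chromosome 2, 163506808 to 163572910, plus strand), had clusters in 4 annotation classes. As in Rora, they lay, by midpoint, downstream of an internal start: 0 in the 40.4 kb (61.1% of the span) before Hnf4a-201, which starts at 163547188, and 16 in the 25.7 kb from there on, or 6.22 per 10 kb. The 10 intronic clusters sat closer to exons than those of the other genes with 10 or more clusters, with a median distance of 468 nt and 6 of 10 within 500 nt (60%, 31.3 to 83.2). Of these 6, 5 lay on the downstream side of an exon, by 155 nt in intron 3 (16 counts), 434 nt in intron 5 (17), 294 nt in intron 6 (11), 446 nt in intron 7 (19) and 489 nt in intron 8 (14), and the 6th overlapped the start of exon 4 (14 counts). The highest cluster, with 29 counts, lay within intron 5 at 163561327 to 163561468.

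The exonic clusters of Hnf4a were low. One of 11 counts (163547160 to 163547346) overlapped the start of the first exon of Hnf4a-201 and began upstream of it. Coding exons 6 and 9 held clusters of 16 and 10 counts. The 3′ UTR of 2819 nt held 3 clusters of 18, 11 and 10 counts, starting 975, 2257 and 2514 nt after the stop codon. That is 1.06 clusters per kb of UTR, near the median of 0.975. The first of these is shown because its 18 counts (10.7 to 28.4) were the highest of the exonic clusters. That interval overlaps the one of the 16 counts in coding exon 6 (9.15 to 26). The window of the cluster shown held no GCATG.
Hnf4a 3′ UTR cluster of 18 counts (chr2:163571067-163571096): ggggaccattgaatgacaaactgaggtcag

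Rxra, which encodes RXRα, the shared partner of the lipid and drug sensors (ENSMUSG00000015846.14, chromosome 2, 27676440 to 27762957, plus strand), had 18 clusters. Intron 1, 59.8 kb of the 86.5 kb gene, held 15 of its 17 intronic clusters and 253 of its 300 counts. Its density was 2.51 clusters per 10 kb, against 2.08 over the whole gene. The intronic clusters were spread out rather than near exons: the median distance over the 17 was 8986 nt, 10 lay beyond 5 kb, and 1 of 17 was within 500 nt (18 counts, 107 nt downstream of exon 7). The highest cluster was 33 counts at 27687647 to 27687838. A later annotated start, that of Rxra-202 at 27709292, divides the gene, and here 12 clusters with 199 counts lay before that start and 6 with 101 counts after it. Rora and Hnf4a were split at the start of the reference transcript, which Rxra-202 is not. At its own reference start, that of Rxra-201 at 27677201, Rxra had 0 clusters before and 18 after. The 1 exonic cluster, 18 counts at 27761251 to 27761402, lay in the 3′ UTR and ended 15 nt before an annotated transcript end; its centre is shown because, with those of Rora and Hnf4a, it completes the 3 genes with 3′ UTR binding, and its window held no GCATG.
Rxra 3′ UTR cluster of 18 counts (chr2:27761312-27761341): gtgccttctgcagacccccctcttccattg

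**Figure D4:**
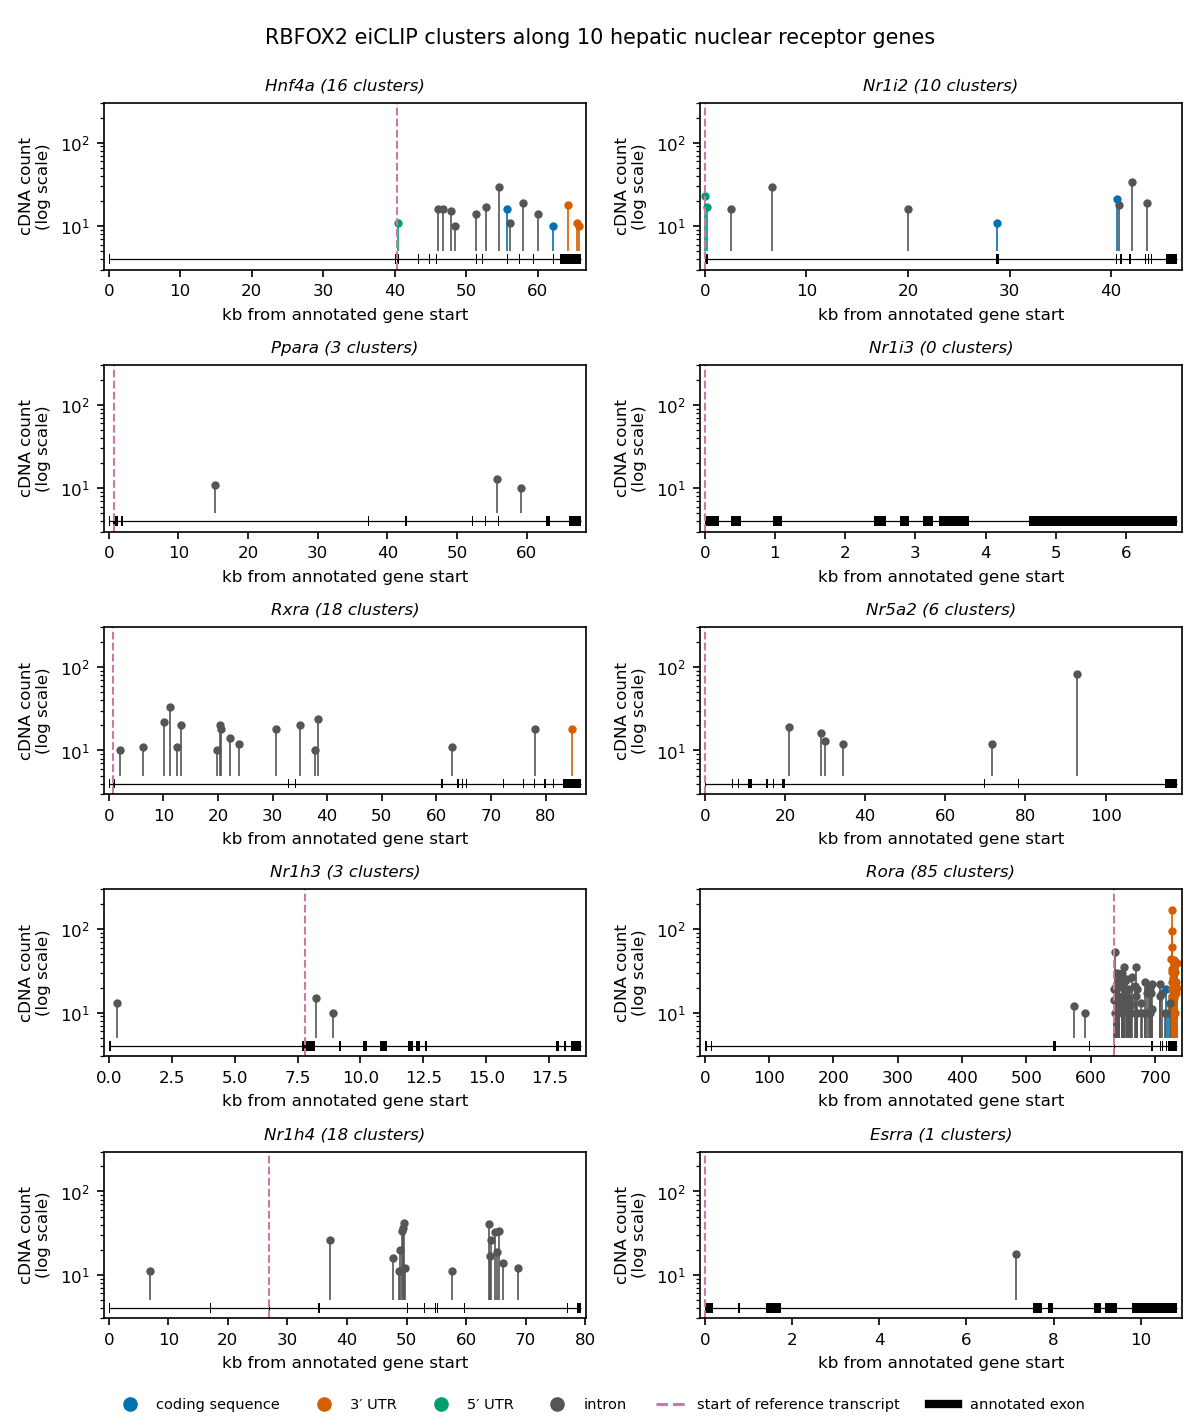
Position of each cluster in kb from the annotated gene start (x axis, in the direction of transcription) and its cDNA count (y axis, log scale) for the 10 receptor genes, coloured by annotation class, with annotated exons as black boxes and the start of the reference transcript as a dashed line. Clusters of Hnf4a and Rora begin at the dashed line with 0 and 2 clusters before it, most of those of Rxra lie in intron 1, up to 38.4 kb, and Nr1h4 shows 2 tight groups.

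Nr1h4 encodes FXR, the bile acid receptor (ENSMUSG00000047638.15, chromosome 10, 89454234 to 89533585, minus strand). All 18 of its clusters were intronic, with counts from 11 to 42 and a median of 19.5, and 14 of them fell into 2 runs with gaps of at most 1 kb, a limit set after the positions were seen. The first run, of 7 clusters and 171 counts over 1.94 kb (89483883 to 89485826), lay 359 to 2295 nt upstream of exon 3 and included the highest cluster of the gene, 42 counts at 89483922 to 89483937, whose distance to exon 3 was 398 nt. The second, of 7 clusters and 184 counts over 2.36 kb (89467326 to 89469681), lay deep in intron 7 and included 41 counts at 89469648 to 89469681. Together they held most of the 415 counts of the gene. Exon 3 is annotated with 2 lengths, 153 nt in Nr1h4-202 and Nr1h4-203 and 141 nt in Nr1h4-201, from downstream ends 12 nt apart. The first run lies on the other side of the exon, upstream of the end that both forms share. Which form the hepatocytes used was not measured here. In the 26.9 kb before the start of Nr1h4-201 lay 1 cluster of 11 counts (0.371 per 10 kb), against 17 in the 52.4 kb of that transcript (3.24 per 10 kb).

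Nr1h3 and Ppara, the other lipid sensors, had little. Nr1h3, which encodes the oxysterol receptor LXRα (ENSMUSG00000002108.10, chromosome 2, 91184061 to 91202834, minus strand), had 3 intronic clusters of 13, 15 and 10 counts, and all 3 lay within 500 nt of an exon. The cluster of 15 was 38 nt downstream of an exon (91194605 to 91194615), that of 10 was 209 nt upstream of one, and that of 13 (91202459 to 91202537, 208 nt downstream) also lies in Gm13783 on the same strand, so its gene is uncertain. Ppara, which encodes the fatty acid receptor PPARα (ENSMUSG00000022383.13, chromosome 15, 85734983 to 85802819, plus strand), had 3 intronic clusters of 11, 13 and 10 counts in introns 2, 5 and 6, at most 3 above the list minimum of 10. The cluster of 13 counts was 2 nt wide and 148 nt upstream of exon 6. Neither gene had an exonic cluster.

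The xenobiotic sensors differed from each other. Nr1i2, which encodes PXR (ENSMUSG00000022809.4, chromosome 16, 38248323 to 38294824, minus strand, 1 annotated transcript), had 10 clusters over 3 classes. Of these, 2 lay in the 5′ UTR (23 counts at 38294757 to 38294762 and 17 at 38294548 to 38294562), and 2 lay in coding sequence, 11 counts in exon 2 and 21 in exon 3. The cluster of 23 counts starts exactly at AGCCTAA, 1 of 3 heptamers seen at other clusters of this list that resemble the first 7 bases of the ligated adaptor (an A and a 6-base index), and the part of this in its count was not tested. Among the 6 intronic clusters, 3 were in intron 1 with 61 counts in all, and the other 3 touched or lay near the short introns toward the 3′ end: the highest of the gene, 34 counts at 38252807 to 38252834, overlapped the boundary of exon 5 and intron 5, 19 counts at 38251212 to 38251299 overlapped an end of intron 6, and 18 counts lay 143 nt downstream of exon 3. Nr1i3, which encodes CAR (ENSMUSG00000005677.14, chromosome 1, 171213970 to 171220701, plus strand), held 0 clusters in its 6.73 kb. The list starts at 10 counts, so contact below that was not detectable, and of the 5939 protein-coding genes shorter than 7 kb (a limit chosen after seeing this gene) 930 held a cluster (15.7%).

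Across the 9 genes, 22 of 119 intronic clusters (18.5%, 12.5 to 26.4) lay within 500 nt of an exon, against 28.9% of all intronic clusters, and the median distance was 4315 nt against 1608 nt. Rora weighed on this: without it the share was 17 of 64 (26.6%, 17.3 to 38.5) and the median 2186 nt. Of the 22, 12 lay downstream of the exon, 7 upstream and 3 across its edge, or 54.5%, 31.8% and 13.6%, beside 48.5%, 39% and 12.5% of all near-exon clusters.

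None of the 5 annotated cassette exons of the receptor genes, which are internal exons skipped by at least 1 coding transcript, had a cluster in the adjoining 500 nt of intron (0 of 5, 0 to 43.4%; 10.6% of all cassette exons). In Nr1h3 the 180 nt exon at 91190462 to 91190641 was 3264 nt from the nearest cluster, in Nr5a2 the 63 nt exon at 136952102 to 136952164 was 12530 nt from it, and the other 3 belong to Nr1i3, which had no cluster. Of 50 constitutive exons, used by every coding transcript that spans them, 11 (22%, 12.8 to 35.2) had one, against 6.73% of all. Counting only clusters at or above the median count lowered both, to 5 of 50 (10%) and 3.71% of all. Of 12 exon forms with alternative ends, 4 (33.3%, 13.8 to 60.9) had one, against 10.7% of all, and these were 1 form at each of 2 Hnf4a exons (95 nt and 156 nt) and both forms of Nr1h4 exon 3, which share 1 set of clusters. At these Hnf4a exons the other form stops where a transcript ends, Hnf4a-205 at 163552635 and Hnf4a-204 at 163559109. The annotation therefore shows no alternative splice site there. The Nr1h4 forms differ at their downstream end, whereas their clusters lie upstream. Of 9 internal exons spanned by 1 coding transcript only, 7 of them in Nr1i2, 5 had one (55.6%, 26.7 to 81.1, against 5.37% of all), and these 5 were in Nr1i2. They shared clusters: that of 18 counts in intron 3 and that of 19 counts in intron 6 each counted for the exons on both sides. The shares of all exons include those of genes without a cluster: 41.7% of protein-coding genes held one, against 9 of the 10 receptor genes. The receptor shares are therefore no measure of enrichment beside exons. Clusters of 1 gene are not independent, so these shares describe the genes and carry no test.

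Other genes of the pathway were counted from lists, and since gene length differs, their sums are not compared with those of the 10 receptors. Of 38 other nuclear receptors, 23 held a cluster (60.5%; the median summed count over the 38 was 19), and the highest were Nr6a1 with 36 clusters and 937 counts, Nr2c2 with 15 and 255, and Nr2f6 with 12 and 236. Of the coregulators, which receptors recruit to open or close chromatin, clusters were found in all 12 coactivators (median 152 counts, led by Ncoa2 with 96 clusters and 2514 counts, then Crebbp with 552 and Ncoa6 with 295) and all 8 corepressors (median 408, among them Ncor1 with 603 and Lcor with 462). Over all protein-coding genes, 41.7% held a cluster. Those with a cluster had a median span of 32.7 kb, against 10.2 kb without one, and the numbers from the lists were not adjusted for length.

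Known target genes were counted in the same way, beside the 41.7% of all protein-coding genes that held a cluster. Of the 12 genes of bile acid synthesis, transport and control, many of which are regulated by FXR and LRH-1, 6 held a cluster (50%; median 6 counts), with Abcb4 at 289, Cyp27a1 at 214 and Fgfr4 at 65, and Cyp7a1, the rate-limiting enzyme of bile acid synthesis, held 0. Of 8 LXR targets, 5 did (62.5%; median 35.5), led by the desaturase Scd1 with 72 clusters and 5677 counts, then Abca1 with 233 and Lpcat3 with 121. Of 12 PPARα targets, 8 did (66.7%; median 128), among them Plin2 with 667 counts and Cpt1a with 529. Of 8 xenobiotic genes, 7 did (87.5%; median 145), with Cyp2b10 at 2980, Abcc2 at 989 and Abcc3 at 612; genes with close copies such as Cyp2b10 are uncertain, because reads had to map uniquely. Beside these, the median over all 22028 protein-coding genes was 0 clusters.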

How the data were processed

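RBFOX2 eiCLIP was performed on primary mouse hepatocytes in 3 libraries of 1 group. According to the labels and methods, adaptors were trimmed with cutadapt, reads were base-called with CASAVA 1.8.4 and aligned with STAR 2.4.2a to GRCm38 (mm10) keeping unique matches, duplicates were collapsed by position and random barcode, and Paraclu clusters were called on iMaps. The authors deposited 1 list of 87021 clusters, each with a whole-number count that is not normalised and is at least 10. This was taken to be the cDNA count pooled over libraries. Depth per library is therefore unknown, no input was subtracted here, and filtering by the minimum hides weaker sites.

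Clusters were assigned by midpoint and strand with GENCODE M21. Coding sequence took precedence, then the 3′ UTR and the 5′ UTR, then exons of non-coding transcripts; everything else in a gene, including exons found solely in transcripts with a retained intron, was called intronic. The reference transcript was the best APPRIS principal one, the longest on ties. Sequence came from GENCODE transcripts placed through their exons (19 with another length were left out), so most intronic clusters had none. The rule for naming took all 10 members, their exonic and highest clusters, those within 500 nt of a cassette exon (there were none), and the 3 genes of each list with the highest summed count (some are not reported here); other clusters near exons and the runs of Nr1h4 were chosen after their values were seen. Members and lists were chosen with earlier results of these data known, so all values are descriptions. Counting was tested on simulated data. Python 3.11.15, pandas 2.3.3, numpy 2.4.6, scipy 1.17.1 and matplotlib 3.10.9 were used.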

Additional observations from a re-analysis of the deposited data

Results flagged for a closer look

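At the receptor loci, 2 clusters lay on the strand opposite to the gene where the annotation has no gene, and so entered no value above. One, of 35 counts and 2 nt wide, faces Nr1h4 at 89462012 to 89462013 on chromosome 10, within the range of 11 to 42 counts of the 18 clusters on the Nr1h4 strand. The other, of 11 counts and 2 nt wide, faces Rora at 69009428 to 69009429 on chromosome 9, in the part of the gene before Rora-202. There is no control library here to compare them with.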

How the results depend on the processing

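No paired analysis was possible because the libraries were pooled before clusters were called; for the same reason no replicate could be left out. Over 15 results and 66 alternatives, 41 values stayed and 25 moved. A share stayed if it lay within the interval of the main share. A number of clusters, counts or genes, which had no interval here, stayed if it lay within 1.5 times the main value. Keeping clusters at or above the median count left 85 of 160 clusters, a constitutive exon share of 10% in place of 22% (over all genes 3.71% in place of 6.73%), 15 other nuclear receptors in place of 23 and 3 bile acid genes in place of 6. Keeping the top 10% by count left 11 clusters, 711 counts, an intronic share of 36.4%, a 3′ UTR share of 63.6%, and 6 other nuclear receptors, 3 coactivators, 4 corepressors, 1 bile acid gene, 3 LXR targets and 5 PPARα targets. The 41.7% of all protein-coding genes with a cluster holds for the full list only. The matching share at either count minimum is not given here, so the numbers of list genes at these minimums stand without a background. Weighting by count gave 66.3% intronic and 29.6% 3′ UTR. A window of 1000 nt put 27.7% of intronic clusters near an exon. The GCATG share fell from 21.2% to 8.33% with 20 nt on each side and was 9.09% for TGCATG. Chosen after seeing the data, leaving out Rora gave 75 clusters, 1400 counts, 85.3% intronic, 5.33% 3′ UTR, 26.6% near an exon and 0% with GCATG, and leaving out clusters of 5 nt or less gave 129 clusters and 2778 counts. Leaving out clusters with 1 of the 3 adaptor-like heptamers 6 to 17 nt downstream of their 5′ end removed 0 of the 40 clusters searched; this range does not cover the Nr1i2 cluster of 23 counts, which has one at its 5′ end itself. Counting clusters at any position within 500 nt of an exon, beyond the adjoining intron too, left 22% of constitutive and 0% of cassette exons with one. The shares over all genes rose under this rule, to 10.2% of constitutive exons from 6.73% and to 13% of cassette exons from 10.6%. Why values moved was not tested beyond the construction of each alternative (fewer clusters, other weights, other windows).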

Other observations

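Some clusters lay beside the receptor genes without counting for them. Over Nr1i3, which held 0 clusters, 2 clusters of 19 and 21 counts lay on the opposite strand in Tomm40l, and 37 counts lay past its end in Apoa2. Across from Hnf4a, in the part before Hnf4a-201 that held 0 clusters on its own strand, 1 cluster of 13 counts lay in Hnf4aos. Ppara had a cluster of 10 counts 2916 nt past its annotated end, in no annotated gene, and Esrra one of 20 counts past its end, in Prdx5.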
